A study of Homo sapiens with 134 samples.

Results

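p53 is the transcription factor that halts or removes cells with damaged DNA, and the genes described here are 8 of its targets and regulators: MDM2, MDM4, PPM1D, CCNG1, TP53INP1, ZMAT3, BTG2 and TOB1. They were taken by symbol, with every probe of each, from 19381 genes named on Illumina HumanWG-6 V2 BeadChips. Of the 8 genes, 7 had a named probe, and BTG2 was not analysed here. MDM2 had 3 probes and each of the others 1, and 7 of the 9 probes, 1 per gene, passed the filter on dim probes. The genes were chosen by their roles and selected on the measured log2 ratios of irradiated to mock-irradiated cells, which were in view when the list was drawn up, so those ratios are given as a description and carry no weight as a test.

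The cells were HBEC3KT, bronchial epithelial cells immortalized with CDK4 and hTERT, which is 1 human line and whose CDK4 is overexpressed in every group. They were exposed to 56Fe ions at 0.5 or 1 Gy, to 28Si ions at 0.5 or 1 Gy, or to γ-rays at 1 or 3 Gy and collected at 1, 4, 12 and 24 h. The γ-ray arm bears the name x-ray in the array labels and was taken as γ-rays after the study's methods. Each exposure had mock-irradiated cells at the same times and reference cells collected before irradiation. A run is 1 radiation type in 1 irradiation campaign (08A, 08C, 09A, 09B or 09C), and there were 9 runs, 3 per radiation type, which serve as replicates. The samples numbered 71 irradiated, 36 mock and 9 reference after arrays of 1 run, dose and time were averaged.

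p53 is held down by a set of regulators, several of which it induces itself in a feedback loop. MDM2 is the ubiquitin ligase that marks p53 for degradation, MDM4 is its non-ligase partner that blocks p53 activity, PPM1D (WIP1) is a phosphatase that removes activating phosphates from p53 and its kinases, and CCNG1 (cyclin G1) recruits a phosphatase to MDM2. TP53INP1 is a nuclear cofactor that promotes p53 phosphorylation, and ZMAT3 (Wig-1) is an RNA-binding zinc finger protein. BTG2 and TOB1 belong to one antiproliferative family that binds the CCR4-NOT deadenylase.

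The median raw signal per array lay between 46.2 and 104 in irradiated arrays, between 45.8 and 102 in mock arrays and between 51.4 and 115.8 in reference arrays. Of the basal airway epithelial markers, 6 of 6 named ones passed the filter, with KRT5 at 13.22 on the log2 scale. Of other cell types, 2 of 6 fibroblast, 2 of 4 endothelial, 3 of 4 ciliated or secretory and 4 of 5 leukocyte markers passed it, and their medians lay between 6.06 and 6.38, near the filter of 6.23, although CD68 was at 10.91. Only 17 of 83 irradiated arrays shared a chip with their mock, so most ratios span 2 chips. With the chip as a random block the same 2 members were called at 4 h. That fit took the arrays without averaging, so both doses and the repeat arrays of a run counted as separate values. Its p-values therefore rest on more values than there are runs, and nothing is read from that agreement about differences between chips.

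The feedback loop is known to run through a second MDM2 promoter, inside the gene, where p53 binds, and that window is shown because it is the textbook p53 element of the list. RefSeq (GRCh38.p14) promoter windows of 300 bases were at hand for 7 of the 8 genes, 13 windows in all. They were searched on both strands for the p53 half-site consensus, which is its own reverse complement. Of the 13 windows, 0 held a half-site without a mismatch, against 6.63% of 35116 windows of all genes. A pair of adjoining half-sites with at most 1 mismatch each was found in 2 of the 13 windows, against 0.157% of all windows, and both were overlapping windows of the second MDM2 promoter. The one at chr12:68808767-68809066, plus strand, is printed with the pair in capitals, which begins 94 bases before the start site.
MDM2 second promoter: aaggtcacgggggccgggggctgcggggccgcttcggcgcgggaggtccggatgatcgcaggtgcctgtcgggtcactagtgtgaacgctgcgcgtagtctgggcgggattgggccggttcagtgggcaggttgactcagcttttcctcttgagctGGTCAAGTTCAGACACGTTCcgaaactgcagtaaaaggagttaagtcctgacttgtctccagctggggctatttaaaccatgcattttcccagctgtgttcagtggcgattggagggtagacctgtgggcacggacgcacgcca
A match is a description of letters and no evidence of binding, and the lack of one in the other windows says nothing of sites elsewhere in those genes. Half-sites without the C and G of the consensus core could not be found. The lower case letters of the printed window may therefore hold other p53 elements.

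At 4 h TP53INP1, ZMAT3 and TOB1 were above mock in all 9 runs. PPM1D, CCNG1, MDM2 and MDM4 were above mock in 7, 6, 5 and 4 of 9 runs. The ratio to mock is the mean log2 signal of both doses minus that of the mock sample of the same run and time. Averaged over 9 runs at 4 h it was 0.41 ± 0.14 for TP53INP1, 0.29 ± 0.19 for ZMAT3, 0.27 ± 0.15 for TOB1, 0.17 ± 0.20 for PPM1D and 0.12 ± 0.26 for CCNG1 (SD, n = 9). MDM2 was at -0.07 ± 0.50 and MDM4 at -0.05 ± 0.20. In limma, with p-values adjusted over 24350 probes by Benjamini-Hochberg, 2 of the 7 members were called at 4 h, TP53INP1 (adjusted p = 0.0029) and TOB1 (adjusted p = 0.00707), against 0.0534% of all probes (13), or 0.0370% higher and 0.0164% lower, and since the list rests on this contrast nothing is read from that count. Without run 08A of 56Fe or run 09C of γ-rays 1 member was called, TP53INP1. In a fit that did not pair irradiated samples with the mock of their run 0 members and 0 probes were called, and after scaling each array to a common median 0 members.

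**Figure D1:**
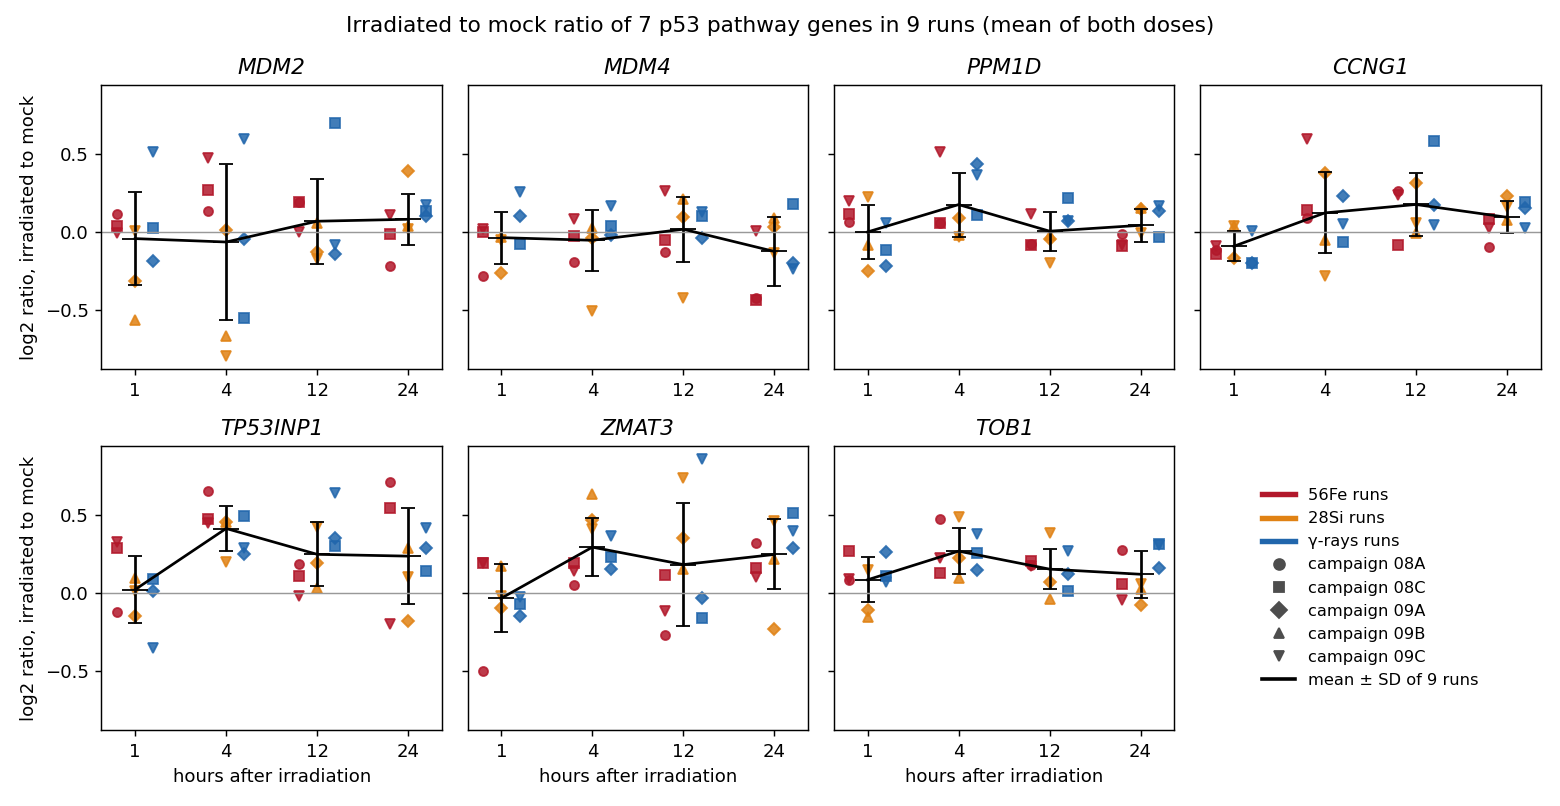
Log2 ratio of irradiated to mock cells against hours after irradiation for 7 genes, where each point is 1 run (colour for radiation type, shape for campaign) and the black line is the mean with its SD over 9 runs. TP53INP1, ZMAT3 and TOB1 lie above 0 in all 9 runs at 4 h, whereas MDM2 runs from -0.80 to 0.59.

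TP53INP1 had log2 levels from 7.27 to 8.28 with a median of 7.86 in 18 irradiated samples at 4 h, against 7.01 to 7.69 with a median of 7.49 in 9 mock samples. The groups overlapped, and the difference showed within runs. Its ratio was 0.65, 0.48 and 0.45 in the 56Fe runs 08A, 08C and 09C, 0.46, 0.46 and 0.20 in the 28Si runs 09A, 09B and 09C, and 0.49, 0.25 and 0.29 in the γ-ray runs 08C, 09A and 09C. The lowest value, in 28Si 09C, was still above 0, and the mean equals a 1.33-fold higher signal with the processing used here. The size depends on that processing, and with the authors' values the mean log2 ratio was 0.65. At 12 and 24 h the ratio was 0.25 ± 0.21 and 0.24 ± 0.31, with 8 and 7 of 9 runs above 0.

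TOB1, the antiproliferative protein, had 9.46 to 10.96 (median 9.997) in irradiated samples at 4 h and 9.39 to 10.48 (median 9.58) in mock samples. Its ratio was 0.47, 0.13 and 0.23 with 56Fe, 0.22, 0.09 and 0.49 with 28Si, and 0.26, 0.14 and 0.38 with γ-rays. The means by radiation type were close, 0.28, 0.27 and 0.26, and the spread lay between runs. At 12 and 24 h the ratio was 0.15 ± 0.13 and 0.12 ± 0.15, positive in 8 and 7 of 9 runs.

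ZMAT3 had 9.90 to 11.20 (median 10.48) in irradiated samples at 4 h and 9.78 to 10.76 (median 10.22) in mock samples. Its ratio was 0.05, 0.19 and 0.14 with 56Fe, 0.47, 0.63 and 0.41 with 28Si, and 0.23, 0.15 and 0.37 with γ-rays. All 3 values with 28Si lay above all values of the other types. It was not called at 4 h (adjusted p = 0.311 in limma). At 12 h its runs ranged from -0.27 to 0.86 around a mean of 0.18 ± 0.40, and at 24 h 8 of 9 runs were above 0 with a mean of 0.25 ± 0.22.

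PPM1D was above mock in 7 of 9 runs at 4 h, with 0.06, 0.05 and 0.51 with 56Fe, 0.09, -0.02 and -0.03 with 28Si, and 0.11, 0.43 and 0.37 with γ-rays. PPM1D was not called at 4 h (adjusted p = 0.35 in limma), and at 12 and 24 h its means were 0.00 ± 0.13 and 0.04 ± 0.11. CCNG1 was above mock in 6, 7 and 8 of 9 runs at 4, 12 and 24 h, with means of 0.12 ± 0.26, 0.18 ± 0.20 and 0.09 ± 0.10. The CCNG1 values at 4 h ran from -0.29 in 28Si 09C to 0.60 in 56Fe 09C, so they straddled 0.

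MDM2 varied more between runs than the other members at 4 h. Its main probe, matched to NM_002392.2, had ratios at 4 h of 0.13, 0.27 and 0.48 with 56Fe, 0.01, -0.67 and -0.80 with 28Si, and -0.55, -0.05 and 0.59 with γ-rays. All 3 56Fe values were above 0 and the others fell on both sides. Repeat arrays of 1 sample (12 sets) differed by an SD of 0.30 for this probe, 0.36 for TP53INP1, 0.34 for ZMAT3 and between 0.12 and 0.19 for the other members. Its means were 0.07 ± 0.27 at 12 h and 0.08 ± 0.16 at 24 h. The other MDM2 probes, for NM_006880.2 and NM_006879.2, averaged 6.11 and 6.22, below the filter, and their ratios at 4 h were -0.02 ± 0.16 and 0.03 ± 0.10.

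MDM4, the partner of MDM2, had mean ratios of -0.05 ± 0.20 at 4 h, 0.02 ± 0.21 at 12 h and -0.13 ± 0.22 at 24 h. At 24 h it was at -0.42, -0.44 and 0.00 with 56Fe, 0.03, 0.09 and -0.13 with 28Si, and 0.18, -0.20 and -0.24 with γ-rays. These runs lay on both sides of 0. With the authors' values the mean at 24 h was -0.33.

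At 1 h the ratios lay between -0.09 (CCNG1) and 0.08 (TOB1), and 0 of 7 members and 0% of all probes passed the threshold (831 at an unadjusted p under 0.05). At 12 h 0 of 7 were called against 0.0945% of all probes (0.0739% higher and 0.0205% lower), and at 24 h 0 of 7 against 0.0123%. The counts of all probes at an unadjusted p under 0.05 were 2152 and 1378 in limma. All 7 members averaged above 0 at 12 h and 6 of 7 at 24 h, with member medians of 0.15 and 0.09 beside medians of 0.00 over all probes. PPM1D at 12 h was so close to 0 that it lay below it with the authors' values.

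Irradiated and mock cells at 4 h were also each set against the reference cells of their run. TP53INP1 was at 0.11 ± 0.45 in irradiated cells relative to reference and at -0.31 ± 0.50 in mock cells relative to reference, above reference in 8 and 2 of 9 runs. TOB1 was at 0.08 ± 0.43 in irradiated cells and -0.18 ± 0.40 in mock cells. CCNG1 was below reference in both, at -0.21 ± 0.26 in irradiated cells and -0.33 ± 0.39 in mock cells. ZMAT3 was at 0.28 ± 0.49 in irradiated cells and -0.01 ± 0.36 in mock cells, and PPM1D at 0.24 ± 0.43 in irradiated cells and 0.06 ± 0.45 in mock cells. Mock cells thus averaged below reference for TP53INP1, TOB1 and CCNG1, and near it for ZMAT3 and PPM1D.

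**Figure D2:**
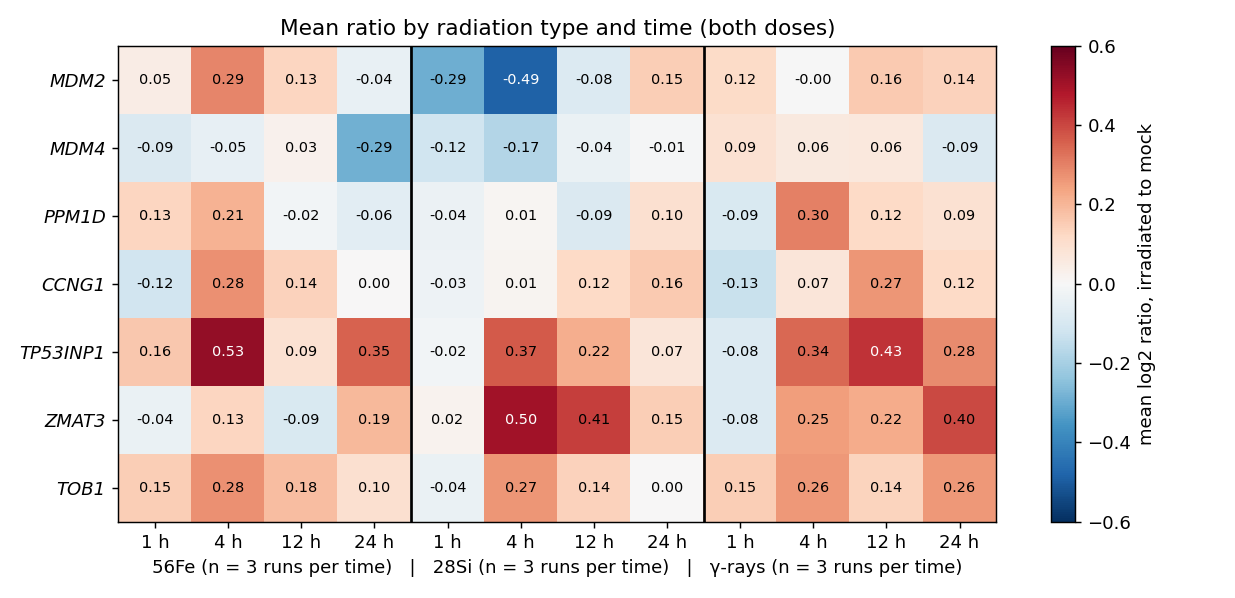
Mean log2 ratio of irradiated to mock cells for 7 genes (rows) by radiation type and hours (columns, 3 runs each), red above and blue below mock. The highest mean is TP53INP1 at 4 h with 56Fe (0.53) and the lowest MDM2 at 4 h with 28Si (-0.49).

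The study set out to compare radiation qualities, and the members were compared between radiation types over the 4 times with F tests in limma. Of 7 members, 0 differed between the 3 types, and 0% of all probes did (1509 at an unadjusted p under 0.05). Between 56Fe and 28Si at the same 2 doses 0 of 7 members and 0% of probes were called (1476 at an unadjusted p under 0.05). At the shared dose of 1 Gy, 0 of 7 members were called between 56Fe and γ-rays, against 0.0780% of probes, and 0 of 7 between 28Si and γ-rays, against 0% of probes. The unadjusted p was under 0.05 for 2186 and 1556 probes. For a single radiation type, where a call needed a fold above 1.3 and an adjusted p below 0.01, 0 of 7 members were called with 56Fe (0.00411% of probes), 28Si (0%) or γ-rays (0.00411%), where 1090, 2350 and 1573 probes had an unadjusted p under 0.05. Without run 09C of 56Fe 1 member, TP53INP1, was called with 56Fe. These p-values do not show that the types act alike.

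A wide gap was that of MDM2 at 4 h, 0.29 ± 0.17 with 56Fe and -0.49 ± 0.43 with 28Si (SD, n = 3 runs each). The difference was 0.78 with a 95% interval from 0.33 to 1.23, and the F test over the 4 times gave an adjusted p of 0.658. ZMAT3 at 12 h was at -0.09 ± 0.19 with 56Fe and 0.41 ± 0.30 with 28Si, a difference of -0.51 (95% interval -0.90 to -0.12, adjusted p = 0.818). These intervals stand for 1 time each and are not adjusted for the number of genes and times.

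TOB1 at 4 h differed little, by 0.01 between 56Fe and 28Si (95% interval -0.23 to 0.25), 0.02 between 56Fe and γ-rays (-0.22 to 0.25) and 0.01 between 28Si and γ-rays (-0.23 to 0.24). At 1 Gy alone, TP53INP1 at 4 h was at 0.60 ± 0.09 with 56Fe, 0.27 ± 0.33 with 28Si and 0.18 ± 0.13 with γ-rays. The interval of the difference between 56Fe and γ-rays ran from 0.01 to 0.83, and the adjusted p over the 4 times was 0.635.

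Doses were compared within runs as the higher minus the lower. Of 7 members, 0 differed between 1 and 0.5 Gy of 56Fe (0% of all probes, 2004 at an unadjusted p under 0.05), 0 between 1 and 0.5 Gy of 28Si (0.678% of probes), and 0 between 3 and 1 Gy of γ-rays (0.821% of probes). Run 08A of 56Fe has no 0.5 Gy sample at 12 h, so its response there rests on 1 Gy. After γ-rays TP53INP1 at 4 h was at 0.51 ± 0.20 at 3 Gy and 0.18 ± 0.13 at 1 Gy, higher at 3 Gy in all 3 runs, by 0.33 (95% interval -0.02 to 0.67). With 28Si it went the other way, at 0.27 ± 0.33 at 1 Gy and 0.47 ± 0.08 at 0.5 Gy, a difference of -0.21 (95% interval -0.55 to 0.14), and with 56Fe it was at 0.60 ± 0.09 at 1 Gy and 0.45 ± 0.19 at 0.5 Gy. CCNG1 at 24 h with γ-rays was lower at 3 Gy than at 1 Gy by -0.37 ± 0.28, in 3 of 3 runs (adjusted p = 0.513 over the 4 times). With both ions CCNG1 at 24 h averaged higher at the higher dose, at 0.12 ± 0.14 at 1 Gy and -0.12 ± 0.11 at 0.5 Gy of 56Fe, and at 0.28 ± 0.16 at 1 Gy and 0.03 ± 0.17 at 0.5 Gy of 28Si. MDM2 at 24 h with 28Si was higher at 1 Gy than at 0.5 Gy by 0.51 (95% interval 0.10 to 0.93, adjusted p = 0.474 over the 4 times). TOB1 at 4 h was higher at the higher dose by 0.10 ± 0.18 with 56Fe, 0.08 ± 0.08 with 28Si and 0.05 ± 0.13 with γ-rays.

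**Figure D3:**
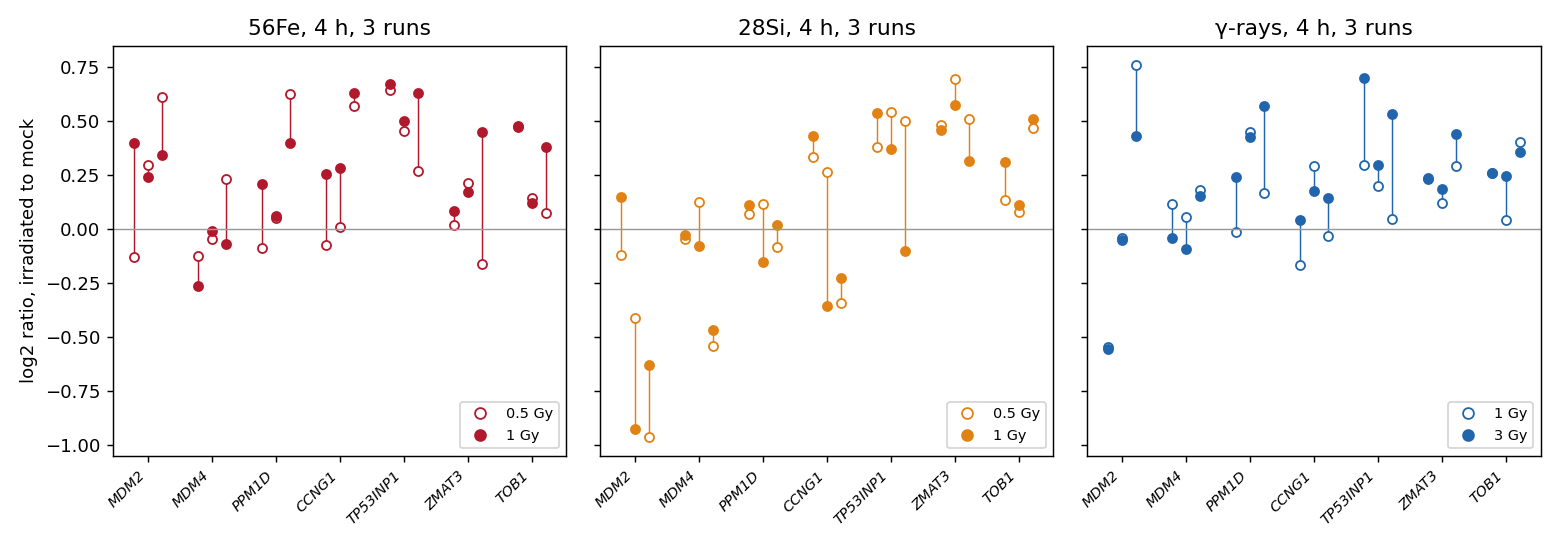
Log2 ratio of irradiated to mock cells at 4 h for 7 genes in the 3 runs of each radiation type, with filled circles for the higher and open circles for the lower dose of the same run, joined by a line. Filled circles lie above open ones for TP53INP1 in all 3 γ-ray runs.

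Mock cells also changed with time. Over reference, 1, 4, 12 and 24 h, 3 of 7 members changed in limma with the run in the fit, CCNG1 (adjusted p = 0.00165), TOB1 (adjusted p = 0.00868) and MDM2 (adjusted p = 0.0485), against 22.6% of all probes. Without run 08C or 09C of 56Fe, 09A of 28Si or 09A of γ-rays 2 of 7 were called, CCNG1 and TOB1. Without run 08A of 56Fe the calls were CCNG1, TOB1, PPM1D and TP53INP1, without 09C of 28Si CCNG1, TOB1 and MDM4, and without 09C of γ-rays CCNG1, TOB1, MDM2 and TP53INP1. MDM2 was called in 6 of 17 alternatives, and was also lost with the chip as a random block, with the authors' values and with no filter. Scaling to a common median left 0 members, and a fit without the run left CCNG1. With 28Si 09A, 56Fe 09C and γ-rays 09C left out together, a choice made after seeing the data, TOB1 was not called. The calls were then CCNG1, TP53INP1, ZMAT3 and MDM2.

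CCNG1 averaged 12.25, 12.32, 11.92, 11.93 and 12.38 in reference cells and mock cells at 1, 4, 12 and 24 h (SD 0.24 to 0.30, n = 9 runs). It fell by 0.40 ± 0.39 at 4 h against 1 h, in 8 of 9 runs (adjusted p = 0.02), the only call of 7 members at that step, against 6.51% of all probes (3.64% higher and 2.87% lower). It rose by 0.44 ± 0.31 at 24 h against 12 h, again in 8 of 9 runs (adjusted p = 0.00703). Leaving out run 08C or 09C of 56Fe or run 09A of 28Si ended the call at 4 h, as did scaling each array to a common median, where the difference was -0.27.

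At 24 h against 12 h, TOB1 rose by 0.39 ± 0.33 (adjusted p = 0.0108) and TP53INP1 by 0.64 ± 0.66 (adjusted p = 0.0338), each in 8 of 9 runs, so that 3 of 7 members were called against 13.0% of all probes, all 3 higher against 5.92%. All 7 members averaged higher at 24 h than at 12 h, with a median of 0.39 beside 0.00 over all probes. ZMAT3 was at 0.44 ± 0.67 (adjusted p = 0.0988), PPM1D at 0.19 ± 0.33 and MDM4 at 0.18 ± 0.33. MDM2 was at 0.03 ± 0.55, in 4 of 9 runs above 0. Scaling to a common median kept all 7 directions and left 0 members called, and without run 09A of 28Si or without the run as a term 1 member, CCNG1, was called. The call of TP53INP1 held in 8 of 17 alternatives. It was also lost without run 09C of 56Fe, 09C of 28Si or 09A of γ-rays, with the chip as a random block and with no filter.

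Mock cells of 3 runs stood apart at 24 h in TP53INP1 and ZMAT3. In mock cells at 24 h TP53INP1 stood at 9.49, 9.47 and 8.93 in 28Si 09A, 56Fe 09C and γ-rays 09C, and at 7.04 to 7.91 in the other 6 runs. ZMAT3 stood at 11.26, 11.40 and 11.48 in the same runs, and at 9.40 to 10.24 in the others. These 3 runs held the 3 highest mock values of TP53INP1, ZMAT3, PPM1D, CCNG1 and TOB1, and 0 of the 3 highest values of MDM2 and MDM4. For CCNG1 and TOB1 there was no clear gap. The lowest value of the 3 runs was 12.51 and 10.37, and the next run was at 12.49 and 10.32. Irradiated cells of these runs were also high at 24 h, from 8.84 to 9.70 for TP53INP1. The median raw signal of their mock arrays at 24 h was 62.8 to 76.4, within the 50.4 to 89.1 of the other runs. With these runs left out together, an alternative chosen after seeing the data, the step at 24 h against 12 h was 0.29 for TP53INP1 (adjusted p = 0.102), 0.30 for TOB1 (adjusted p = 0.0645), 0.03 for ZMAT3 (adjusted p = 0.931) and 0.37 for CCNG1 (adjusted p = 0.0285), so that 1 member stayed called. The runs were picked for their high mock values at 24 h, so smaller steps were set by that choice. The fit also rests on fewer runs, and nothing is read from these steps or that count.

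**Figure D4:**
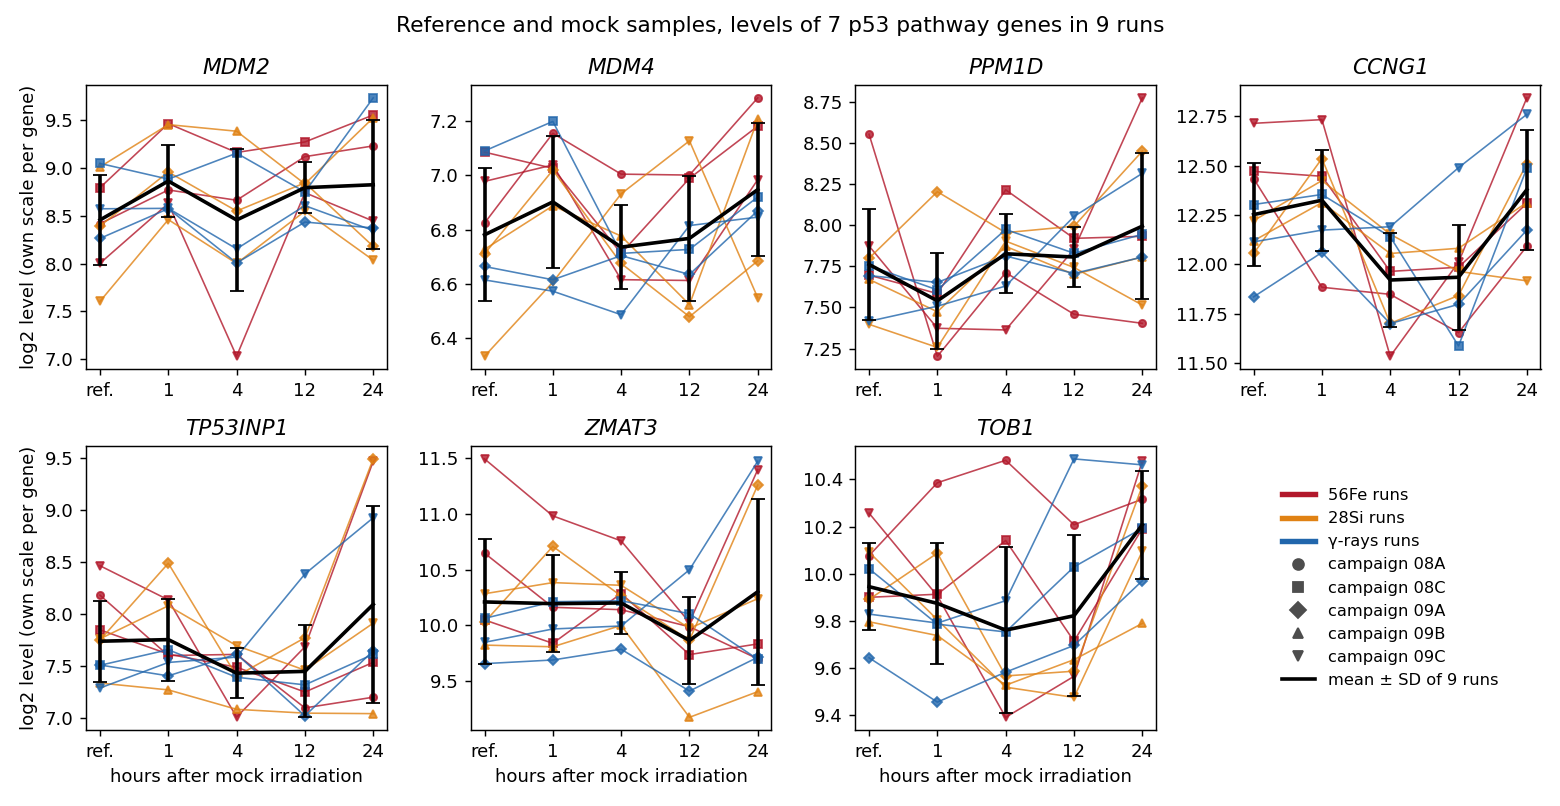
Log2 level of 7 genes in reference (ref.) and mock cells against hours, each thin line 1 run and the black line the mean with its SD over 9 runs, with an axis range of its own for each gene. TP53INP1 and ZMAT3 end in 2 separate bands at 24 h, 3 runs high and 6 low, and CCNG1 is lowest at 4 and 12 h.

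MDM2 in mock cells was higher at 1 h than in reference by 0.41 ± 0.33, in 8 of 9 runs, and lower at 4 h than at 1 h by -0.41 ± 0.52, in 8 of 9 runs, but neither step passed (adjusted p = 0.268 and 0.1). At 1 h against reference 0 of 7 members and 0.546% of all probes were called, and at 12 h against 4 h 0 of 7 members and 5.86% (2.97% higher and 2.90% lower), with 2392 and 4199 probes at an unadjusted p under 0.05 in these 2 steps. ZMAT3 at 12 h against 4 h was at -0.34 ± 0.39, lower in 8 of 9 runs (adjusted p = 0.328).

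The other p53 genes were grouped in 3 lists, drawn up with results of these data known. Of 36 other p53 targets 34 were tested, and 4 were called at 4 h, all higher, against 0.0370% of all probes, with 30 of 34 above 0 (49.5% of all probes) and a median of 0.16. CDKN1A, the p21 inhibitor of cyclin-dependent kinases, was at 0.61 ± 0.07, above mock in 9 of 9 runs (adjusted p = 4.82e-09). The others were KITLG, the ligand of the KIT receptor, at 0.40 ± 0.25, TIGAR, which slows glycolysis, at 0.39 ± 0.13, and CDIP1, which promotes cell death, at 0.35 ± 0.15. TRIM22 (0.32 ± 0.13) and SPATA18 (0.26 ± 0.14) were called at 12 h, and TIGAR (0.30 ± 0.14) and NADSYN1 (0.24 ± 0.14) at 24 h, each above mock in 9 of 9 runs, where 0.0739% and 0.0123% of all probes were called higher. Of 17 tested regulators of p53, among them ATM, CHEK2 and HIPK2, and of 11 tested relatives and partners, among them BTG1 and subunits of CCR4-NOT, 0 were called at 1, 4, 12 or 24 h. Their medians at 4 h were -0.02 and 0.05.

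In mock cells at 24 h against 12 h, 12 of the 34 other p53 targets were called higher, against 5.92% of all probes, and 0 lower, with 29 above 0 (50.5% of all probes) and a median of 0.22. Without the 3 runs named before 4 of the 34 were called, all higher and all among the 12: GDF15, SESN2, XPC and TRIM22. The share of all probes called in that fit is not given here. The runs were left out for high values at 24 h and fewer runs remain, so nothing is read from that count. GDF15, a secreted stress cytokine, rose by 1.22 (adjusted p = 0.00256), SESN2 by 0.67 (adjusted p = 0.00369) and GADD45A by 0.63 (adjusted p = 0.00575). GDF15 and SESN2 were at 1.13 and 0.76 without the 3 runs (adjusted p = 0.00517 and 0.00283), and GADD45A at 0.48 (adjusted p = 0.13). Of the 17 tested regulators 2 were called higher and 1 lower, against 5.92% and 7.04% of all probes. Of the 11 tested relatives and partners 1 was called higher and 0 lower, and nothing is read from these counts. CHEK1, the checkpoint kinase that acts in S phase, fell by 0.66 (adjusted p = 0.00314 in limma). HIPK2, which phosphorylates p53, rose by 0.49 (adjusted p = 0.0025) and EP300 by 0.27 (adjusted p = 0.0338). BTG1, an antiproliferative relative of TOB1, rose by 0.51 (adjusted p = 0.00721). Without the 3 runs the adjusted p in limma was 0.00632 for CHEK1, 0.0146 for HIPK2, 0.161 for EP300 and 0.0334 for BTG1.

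**Figure D5:**
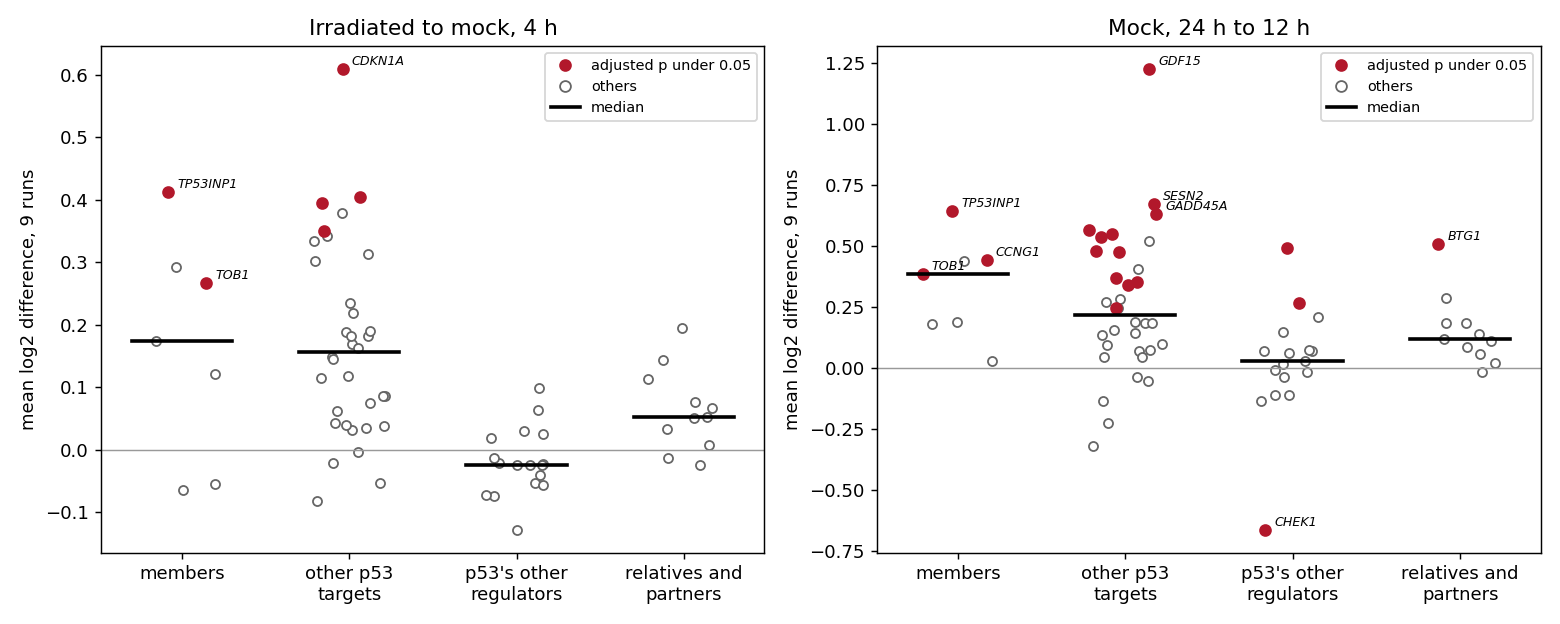
Mean log2 difference over 9 runs for the 7 members and 3 lists of other p53 genes, irradiated to mock at 4 h (left) and mock at 24 h to mock at 12 h (right), where each circle is 1 gene, red with an adjusted p under 0.05, and the bar is the median. The medians of the members are 0.17 and 0.39 and those of the other p53 targets 0.16 and 0.22.

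Across the 36 responses (9 runs at 4 times, so that responses share runs) the members fell into 2 loose groups, given as a description. TP53INP1 correlated with ZMAT3 at r = 0.55 and with TOB1 at 0.52, and ZMAT3 with TOB1 at 0.39. MDM2 correlated with CCNG1 at 0.53 and with PPM1D at 0.45, and PPM1D with CCNG1 at 0.50. Between the groups r lay between -0.32, for MDM2 with ZMAT3, and 0.21, for PPM1D with TP53INP1. The named genes most like each member over the same responses were CDKN1A for TOB1 (r = 0.68), NOTCH1 for TP53INP1 (0.63), TMED10 for ZMAT3 (0.74), ELOVL5 for CCNG1 (0.80), SF1 for MDM2 (0.80), YARS1 for MDM4 (0.70) and ITM2B for PPM1D (0.68).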

How the data were processed

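HBEC3KT cells were profiled on Illumina arrays from 35 chips, 83 irradiated, 40 mock and 11 reference. The authors deposited mean bead intensity per probe, extracted with BeadStudio and neither background-subtracted nor normalized, and a value table on the log2 scale, which the authors background-subtracted (MBCB) and quantile-normalized. Probes are named from the platform annotation. Of 48701 probes 24303 have 1 gene symbol, 0 several and 24398 none here. Symbols were updated and sequences taken from RefSeq GRCh38.p14.

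Intensities were corrected with normexp (offset 50), quantile-normalized and taken to log2 in limma 3.58.1 (R 4.3.3), and arrays of 1 run, dose and time were averaged. The 24350 probes with a mean above the median of 6.23 were tested. limma was fitted to 36 responses (24 residual degrees of freedom, 8.31 prior), 35 dose differences (23 and 6.8) and 45 mock and reference samples with the run as a term (32 and 4.18). Calls were made at an adjusted p under 0.05 (Benjamini-Hochberg), and for 1 radiation type at 0.01 and a fold above 1.3. The pairing of irradiated samples with mock comes from the run. Their deviations from group means correlated in all 36 cases, between 0.46 and 0.89 (median 0.72). The labels do not say whether runs of 1 campaign came from separate cultures, so p-values speak for these runs only. The 36 responses are 4 times of each of 9 runs and were fitted as separate values. Their p-values measure the spread between runs within a radiation type and time, pooled over the times. In the mock fit the level of each run is removed, so p-values there measure how far runs differ in their changes with time. The number of arrays limits the precision.

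The members and gene lists were chosen with earlier results of these data known. All member probes are named, with the brightest as main probe, plus CDKN1A, the genes most correlated with each member, and list genes past a threshold. Fits were tested on simulated data with planted changes larger than the members' mean ratios to mock. No chip effect was simulated, so that test says nothing of the calls given here. As alternatives, the scaling, background step, probe filter, block and set of runs were varied. Tables were read with the R package data.table (version 1.17.8), and figures drawn with matplotlib 3.10.9 in Python.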

Additional observations from a re-analysis of the deposited data

Results flagged for a closer look

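In groups of 9 runs, 6 of the 81 sets of values examined had a highest or lowest run far from the rest (Dixon's gap over range), where chance gives about 4.05. The MDM2 ratio to mock at 12 h was 0.70 in γ-rays 08C, and the next run was at 0.19. The ZMAT3 ratio at 1 h was -0.50 in 56Fe 08A, and the next was at -0.15. The PPM1D level was 8.55 in the reference of 56Fe 08A, against 7.87 in the next, and 8.20 in mock cells at 1 h of 28Si 09A, against 7.65. The dim MDM2 probe for NM_006879.2 was at 6.53 in the reference of γ-rays 09C, against 6.28 in the next run, and at 6.003 in mock cells at 1 h of 28Si 09A, against 6.23.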

How the results depend on the processing

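Of the counts of members called, 335 of the alternative values stayed within 1.5 times the main count and 24 did not. Most main counts were 0, and an alternative of 0 then counts as the same. A change of the called gene at an equal count does too, so this tally does not measure how stable the calls were. At 4 h (main count 2) the count was 0 after scaling each array to a common median, with trend and robust limma, at the lower dose alone and with no replicate block, and 1 with the authors' values and without 28Si 09A, 56Fe 09C and γ-rays 09C together. At 12 h (main count 0) it was 1 at the higher dose alone. In mock cells scaling gave 0 in the time course, at 4 h against 1 h and at 24 h against 12 h (main counts 3, 1 and 3). Without the 3 runs, a choice made after seeing the data, it was 1 at 12 h against 4 h and 1 at 24 h against 12 h. Leaving out 1 run gave 1 to 2 at 4 h, 0 to 1 at 24 h, 0 to 1 for 56Fe alone, 2 to 4 in the mock time course, 0 to 2 at 4 h against 1 h and 1 to 3 at 24 h against 12 h. The cause was not tested.

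With no replicate block, that is without the pairing by run, the counts in mock cells were 1 in the time course, 0 at 4 h against 1 h and 1 at 24 h against 12 h, and over all probes 0 at 4 h after irradiation (13 with it), 0 at 12 h (23), 0 at 24 h (3), 2404 in the mock time course (5510) and 1025 at 24 h against 12 h (3156). A scaling to a common median gave 2, 1 and 0 probes at 4, 12 and 24 h, and 977 and 136 in those mock comparisons. It moved the share of higher calls to 100% at 4 h (main 69.2%), 100% at 12 h (78.3%), 77.8% in mock at 4 h against 1 h (55.9%) and 28.4% at 12 h against 4 h (50.6%).

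Of single genes, TP53INP1 at 4 h was 0.65 with the authors' values. In mock cells at 24 h against reference, ZMAT3 (0.09) turned to -0.0059 with the scaling, -0.05 without 28Si 09A, -0.10 without γ-rays 09C (0.22 without 56Fe 08A) and -0.32 without the 3 runs, where PPM1D was -0.059, CCNG1 -0.016 and TP53INP1 -0.20. TOB1 in mock at 4 h against 1 h was -0.11 and 0.03 with the scaling. Values planned for BTG2 were not run.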
